A study of Mus musculus with 6 samples.

Results

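The feedback brakes of ERK signalling were described here through 10 genes, namely the MAP kinase phosphatases Dusp1, Dusp2, Dusp4, Dusp5 and Dusp6, the Sprouty genes Spry1, Spry2 and Spry4, and the Spred genes Spred1 and Spred2. They were chosen by name for this function, with earlier results of these data known. All 10 were among the 19938 genes that the arrays name through a probe set of their own. Each was read from 1 probe set, and where a gene had several, from the one with the highest mean. The arrays held RNA of mouse pre-B cells transformed by BCR-ABL1, the oncogene that the Philadelphia translocation creates, from animals of 129SvEv x C57BL/6J strain aged 5 weeks. All cells carried floxed Sox4 (Sox4fl/fl), a transcription factor of lymphoid progenitors. The control group of 3 samples carried ERT2 alone, a modified oestrogen receptor domain with no recombinase. The other 3 carried Cre-ERT2, a recombinase that works once 4OHT (4-hydroxytamoxifen) is bound, and all RNA was taken 24 h after 4OHT. No sample joined Cre-ERT2 to unfloxed Sox4 or was labelled as free of 4OHT, so effects of Sox4 loss and of active Cre cannot be told apart. The labels do not say whether samples of a group were separate cultures, so the p-values measure only the spread seen among the arrays, and that spread can be technical.

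ERK is the last kinase of the cascade that runs from receptors through RAS, RAF and MEK to the nucleus. Active ERK induces genes that shut the cascade down again. The MAP kinase phosphatases (Dusp genes) remove the activating phosphates from ERK, JNK or p38, whereas Sprouty and Spred proteins act farther up, between the receptor and RAF. In pre-B leukaemia driven by BCR-ABL1 such feedback, through Dusp6 and Spry2 among others, is known to be needed for transformation.

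Array medians ran from 273 to 279 intensity units, and precision is limited by there being 6 arrays. Sox4 (probe set 10408450) read 1459, 1372 and 1237 in the controls and 599.5, 540.8 and 499.1 in the Cre-ERT2 arrays, a log2 difference of -1.31 (SE 0.0912, limma adjusted p = 0.000434). The sources used here do not place that probe set inside or outside the floxed part. Of 14 pre-B cell markers 13 were measured, and all 13 were brighter than the median gene in their mean over the 6 arrays (its mean intensity was 311). In the Cre-ERT2 arrays alone the means of Enpep (130) and Rag2 (235) were below that value.

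The promoters of 8 of the 10 genes were found in the RefSeq promoter table (GRCm38.p6), of which the 250 bases before the start site were read; Dusp4 and Spry4 were not among them. Dusp5 rose, while Spred1 and Dusp6 leaned the other way without passing the test. Their sequences are shown as examples that hold motifs of factors that work with or below ERK. The motif marked in Spred1 and Dusp6 was also found in Spred2, which leaned higher and is not shown. Dusp5 lies at chr19:53528895-53529144, Spred1 at chr2:117120821-117121070 and Dusp6 at chr10:99262981-99263230, all on the plus strand. Capitals mark CArG boxes, the sites of serum response factor, in Dusp5, and the ETS core CGGAAG, read on either strand, in the other sequences. No other form of the ETS core was searched for, so unmarked letters can hold one.
Dusp5: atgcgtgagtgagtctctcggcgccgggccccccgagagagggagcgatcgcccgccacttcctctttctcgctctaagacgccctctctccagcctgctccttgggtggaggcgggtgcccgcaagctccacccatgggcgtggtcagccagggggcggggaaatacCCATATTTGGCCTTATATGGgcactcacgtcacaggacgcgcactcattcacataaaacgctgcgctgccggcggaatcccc
Spred1: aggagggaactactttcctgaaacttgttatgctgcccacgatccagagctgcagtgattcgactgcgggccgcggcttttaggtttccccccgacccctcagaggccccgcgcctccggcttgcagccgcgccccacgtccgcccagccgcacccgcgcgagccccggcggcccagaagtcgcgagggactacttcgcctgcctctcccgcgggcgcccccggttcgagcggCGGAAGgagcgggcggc
Dusp6: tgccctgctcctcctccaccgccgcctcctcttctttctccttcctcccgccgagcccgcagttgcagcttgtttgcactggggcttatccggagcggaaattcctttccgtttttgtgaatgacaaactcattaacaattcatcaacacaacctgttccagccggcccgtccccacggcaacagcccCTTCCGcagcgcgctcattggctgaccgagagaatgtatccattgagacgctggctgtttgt

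The Dusp5 sequence holds 2 CArG boxes that abut each other, beginning 82 and 72 bases before the start. A CArG box was found in 1.47% of all 32851 promoters of that length, and 2 or more in 6 promoters (0.0183%). Serum response factor works together with ETS factors such as Elk1 that ERK phosphorylates. The ETS core CGGAAG was found on either strand in Dusp6 (62 bases before the start), Spred1 (17) and Spred2 (43), and in 13.6% of all promoters. The cAMP response element TGACGTCA was found in Dusp1 (143 bases before the start) and in 1.55% of all promoters. Of the Sox cores, ACAAAG was found in Spred2 (161 bases before the start) and Spry2 (137) and in 16.5% of all promoters, and ACAATG in 0 of the 8 and in 10.7% of all. The AP-1 site TGACTCA was found in 0 of the 8 and in 4.46% of all. Both strands were searched for all 6 motifs, and matches to different motifs did not overlap in these 8 windows. A match describes letters in the sequence, not a site in use.

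**Figure D1:**
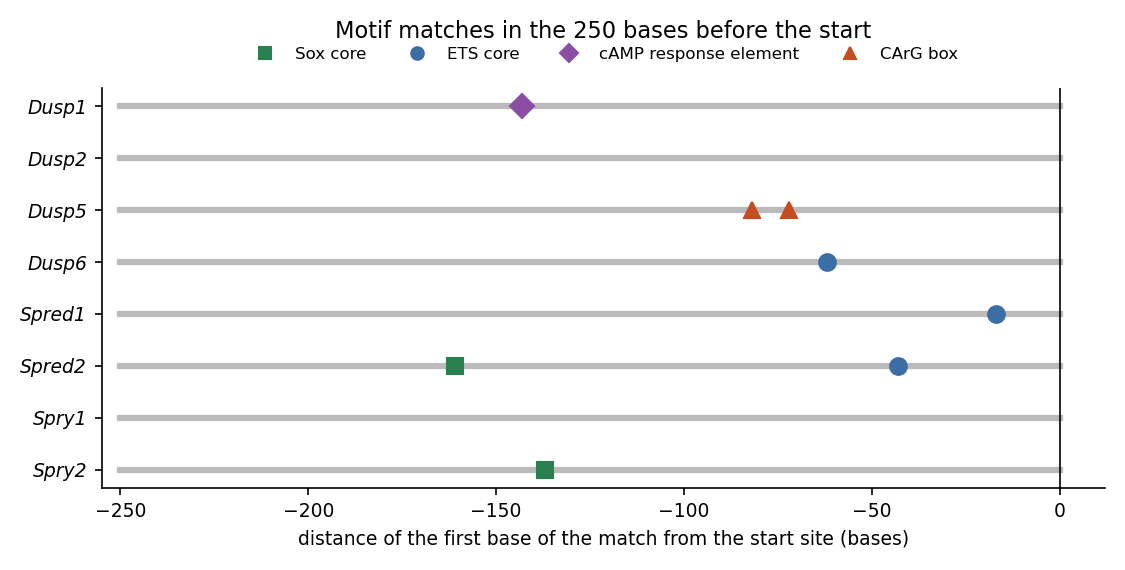
Matches to 4 of the 6 motifs searched in the 250 bases before the start of 8 genes; the horizontal axis is the distance in bases of a match's first base from the start site, and symbols mark the kind of motif. Dusp5 holds the 2 adjacent CArG boxes, at 82 and 72 bases, and Dusp6, Spred1 and Spred2 each hold 1 ETS core.

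Comparing Cre-ERT2 with ERT2 cells addresses how these brakes stood 24 h after deletion of Sox4 was induced. Dusp4 and Dusp5 rose, and none of the 10 genes passed the test as lower. Dusp4 reached 197% and Dusp5 136% of the control mean. Spred1 and Dusp6 read 82.8% and 88.1% of it with groups that did not overlap, but both missed the threshold, an adjusted p under 0.05 in limma's test over all probe sets of the array. The Sprouty genes read between 95.7% and 101% of the control mean. In all, 2 of 10 were called higher, 0 lower and 8 not at all, where over all genes 4.38% were called higher, 3.72% lower and 8.10% in either direction. The median log2 difference was 0.010 over the 10 genes and 0.021 over all genes. As the 10 genes were chosen with earlier results of these data known, these shares only describe them.

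**Figure D2:**
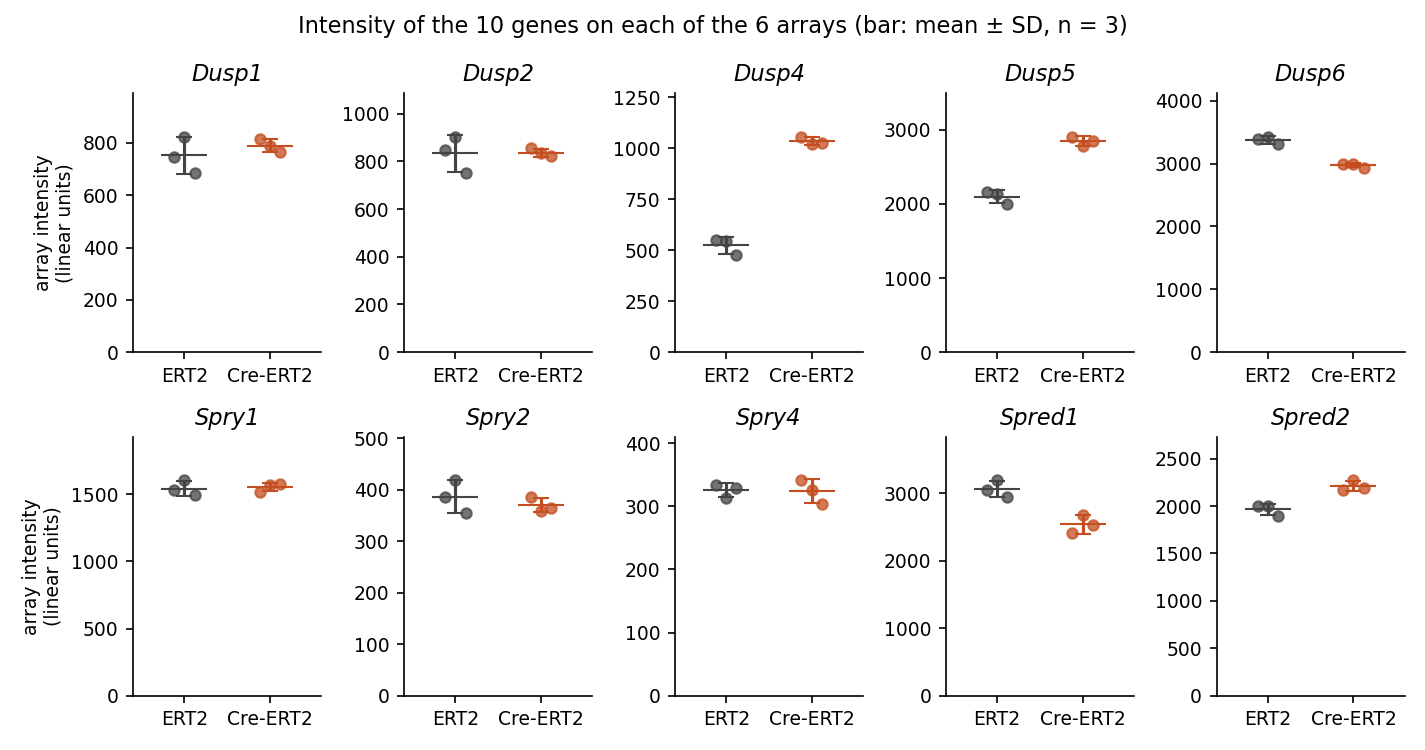
Intensity of each of the 10 genes in linear units (vertical axes, from 0) on the 3 ERT2 and 3 Cre-ERT2 arrays; points are arrays and bars are the mean ± SD. Dusp4 and Dusp5 lie higher on all 3 Cre-ERT2 arrays than on any control array, while the points of Dusp1, Dusp2 and the Sprouty genes overlap.

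Among the phosphatases that work in the nucleus, Dusp4 and Dusp5 stood apart from Dusp1 and Dusp2 in their values. Dusp4 (probe set 10571312), an inducible phosphatase of ERK and JNK, read 551.0, 544.7 and 476.1 in the ERT2 controls and 1056, 1019 and 1026 in the Cre-ERT2 arrays. Every Cre-ERT2 array was far above every control, and the lowest control was replicate 3. Its mean went from 524 ± 41.5 (SD, n = 3) to 1034 ± 19.96 (SD, n = 3), a log2 difference of 0.98 (SE 0.0687, limma adjusted p = 0.000442). Of all genes 109 had a larger log2 rise.

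Dusp5 (probe set 10463945), which removes phosphate from ERK alone and holds it in the nucleus, read 2158, 2134 and 1998 in the controls and 2907, 2776 and 2845 in the Cre-ERT2 arrays. The groups again did not overlap, and the control replicate 3 was again the lowest. Its mean went from 2097 ± 86.0 (SD, n = 3) to 2843 ± 65.6 (SD, n = 3), a log2 difference of 0.44 (SE 0.0521, limma adjusted p = 0.0043), and 465 genes had a larger log2 rise. Both calls were kept in all 18 alternatives, where the log2 difference ranged from 0.91 to 1.02 for Dusp4 and from 0.41 to 0.46 for Dusp5. The largest adjusted p was 0.00437 for Dusp4 and 0.0309 for Dusp5, each in limma without Cre-ERT2 replicate 3.

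Dusp1 (probe set 10449284), the early-response phosphatase that favours p38 and JNK, read 747.9, 824.2 and 683.7 in the controls and 813.3, 789.4 and 765.5 in the Cre-ERT2 arrays. Control replicate 2 was the highest of all 6 arrays and replicate 3 the lowest, so the groups overlapped. The log2 difference was 0.07 (95% interval -0.11 to 0.26, limma adjusted p = 0.744). Dusp2 (probe set 10475782), a phosphatase of activated lymphocytes, read 847.1, 904.1 and 750.5 against 855.2, 833.7 and 821.5. Here too the control arrays spanned all 3 Cre-ERT2 values. Its log2 difference of 0.0090 (95% interval -0.17 to 0.19, limma adjusted p = 0.979) turned to -0.026 under a further quantile normalization. The interval of Dusp4 ran from 0.82 to 1.15 and that of Dusp5 from 0.31 to 0.56, above the upper ends for Dusp1 and Dusp2.

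Dusp6 (probe set 10366043), the ERK phosphatase of the cytoplasm, read 3389, 3429 and 3312 in the controls and 3001, 2993 and 2936 in the Cre-ERT2 arrays. All 3 Cre-ERT2 arrays were below all 3 controls, and the spread within each group was small. Its mean was 3377 ± 59.7 (SD, n = 3) against 2977 ± 35.2 (SD, n = 3), a log2 difference of -0.18 (SE 0.0441, 95% interval -0.29 to -0.076). With a limma adjusted p = 0.0731 it did not pass, at an unadjusted p of 0.00527. It passed in 6 of 12 alternatives that kept all arrays, with adjusted p down to 0.0194 under estimated array weights, and in 0 of 6 that left 1 array out (0.11 to 0.276).

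**Figure D3:**
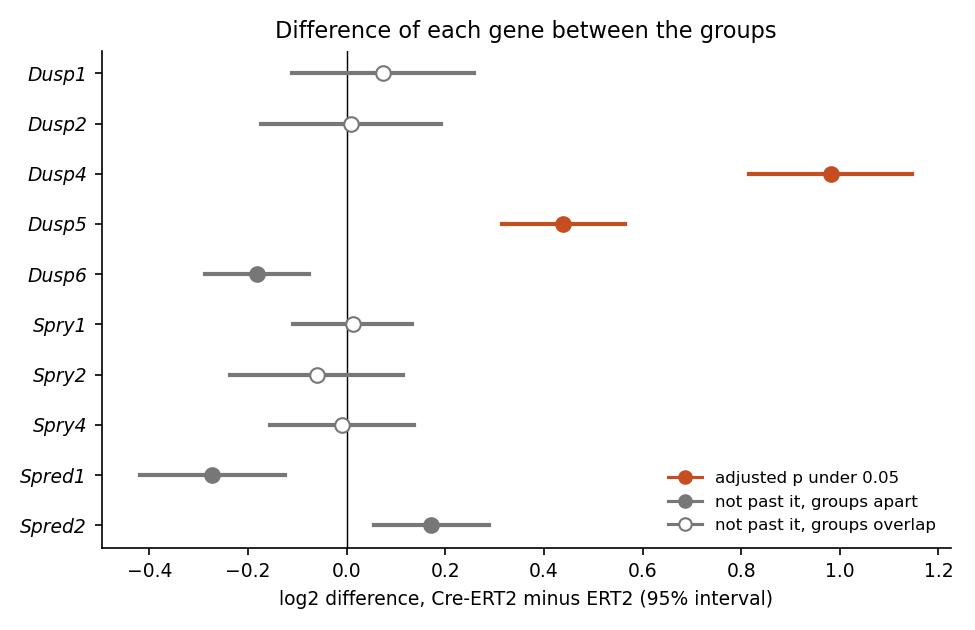
Log2 difference of each gene, Cre-ERT2 minus ERT2, on the horizontal axis, with limma's 95% interval as a line; orange marks an adjusted p under 0.05 and open circles mark overlapping groups. The intervals of Dusp4 and Dusp5 lie wholly above 0.3, those of Dusp6 and Spred1 below 0, and that of Spred2 above 0.

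The Sprouty genes showed no called difference. Sprouty proteins are induced by growth factors and interrupt signalling between the receptor and RAS or RAF. Spry1 (probe set 10491721) read 1528, 1605 and 1491 in the controls and 1519, 1569 and 1573 in the Cre-ERT2 arrays. All 3 Cre-ERT2 values lay within the range of the controls, and the log2 difference was 0.012 (95% interval -0.11 to 0.13, limma adjusted p = 0.954), with the opposite sign under a further quantile normalization (-0.017).

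Spry2 (probe set 10422227), which binds the adaptor Grb2 and the ubiquitin ligase Cbl, read 385.9, 418.4 and 354.3 against 385.1, 358.8 and 364.5. The control replicates 2 and 3 were the highest and lowest of the 6 arrays. Its log2 difference was -0.061 (95% interval -0.24 to 0.11, limma adjusted p = 0.782). Spry4 (probe set 10458555), which holds back the activation of RAF, read 334.1, 314.0 and 329.4 against 341.6, 326.5 and 303.9. Here the Cre-ERT2 arrays spanned all 3 controls, with a log2 difference of -0.0092 (95% interval -0.15 to 0.14, limma adjusted p = 0.973).

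The Spred genes leaned in opposite directions. Spred proteins bind neurofibromin, the RAS inhibitor encoded by Nf1, and bring it to the membrane. Spred1 (probe set 10474671) read 3054, 3194 and 2951 in the controls and 2403, 2682 and 2535 in the Cre-ERT2 arrays. All 3 Cre-ERT2 arrays were lower than all 3 controls, and Cre-ERT2 replicate 1 was the lowest. Its mean was 3066 ± 122 (SD, n = 3) against 2540 ± 140 (SD, n = 3), a log2 difference of -0.27 (SE 0.0609, 95% interval -0.42 to -0.13, limma adjusted p = 0.0551). It passed in 7 of 12 alternatives that kept all arrays, among them a further quantile normalization (-0.29, adjusted p = 0.0187) and a pseudocount of 16 (adjusted p = 0.0446), and in 0 of 6 that left 1 array out (0.0823 to 0.189).

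Spred2 (probe set 10374455) read 1996, 1998 and 1898 in the controls and 2173, 2274 and 2189 in the Cre-ERT2 arrays. The groups did not overlap, and the log2 difference was 0.17 (SE 0.0487, 95% interval 0.055 to 0.29, limma adjusted p = 0.118). A second probe set of Spred2 (10374464) read 1066, 1211 and 1067 against 1249, 1213 and 1187. There control replicate 2 lay among the Cre-ERT2 values, and the log2 difference was 0.13 (SE 0.0658, limma adjusted p = 0.413). Spred2 passed in 1 of 12 alternatives, the brighter probe sets alone (adjusted p = 0.049).

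Groups did not overlap in 5 of the 10 genes, Dusp4, Dusp5, Dusp6, Spred1 and Spred2, against 28.3% over all genes. Those 5 were also the ones with an unadjusted p under 0.05 in limma, beside 4006 of all 19938 genes. Of the 5, 3 were higher and 2 lower in the Cre-ERT2 cells. These counts too describe genes chosen with earlier results of these data known.

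**Figure D4:**
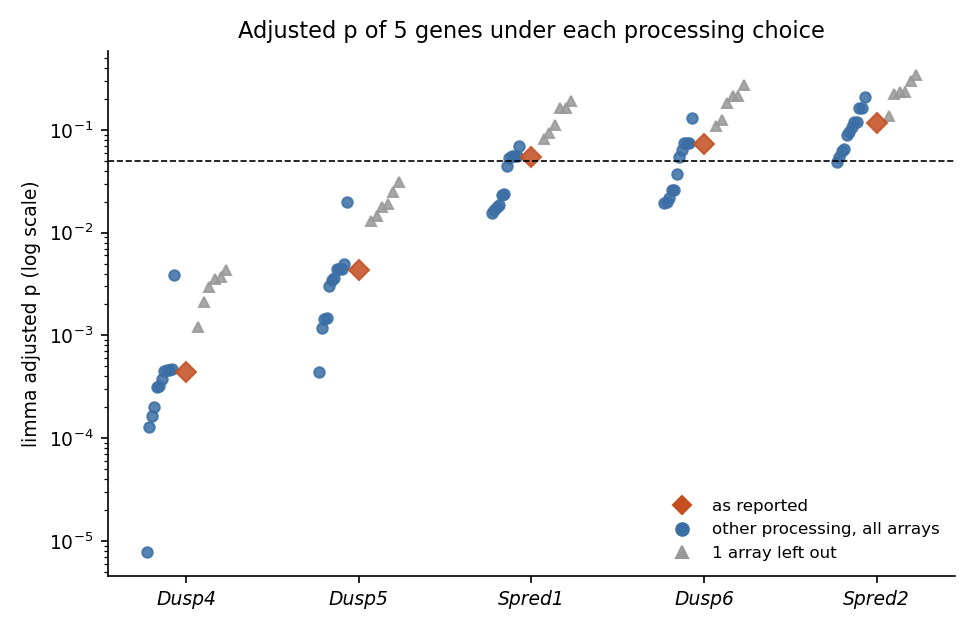
Limma adjusted p (vertical log axis) of the 5 genes whose groups did not overlap, with the reported value as a diamond, 12 processing alternatives as circles and 6 fits without 1 array as triangles; the dashed line is 0.05. All points of Dusp4 and Dusp5 lie below the line, while the circles of Spred1 and Dusp6 lie on both sides of it.

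The genes whose 6 log2 values were most like those of Dusp4 were Mtln, a mitochondrial micropeptide (Pearson r = 0.999 over 6 arrays), Cnp, a phosphodiesterase of myelin (r = 0.999), and Ffar2, a receptor for short-chain fatty acids (r = 0.999). For Dusp5 they were Baiap2, an adaptor of the actin cytoskeleton (r = 0.999), Tac4, a tachykinin (r = 0.999), and again Mtln (r = 0.998). So close a likeness was common, since 186 genes had r above 0.99 with Dusp4 and 103 with Dusp5, and the arrays share the difference between the groups.

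The remaining phosphatases of the family were counted beside the 8.10% of all genes called in either direction. Of 5 other MAP kinase phosphatases 0 rose and 1 fell, Dusp10, which acts on JNK and p38. It read 751.1, 781.5 and 639.6 against 518.5, 512.2 and 546.6, a log2 difference of -0.46 (SE 0.0841, limma adjusted p = 0.027). Dusp7, Dusp8, Dusp9 and Dusp16 had log2 differences of 0.10, -0.044, 0.012 and 0.030 with overlapping groups. Of 16 atypical dual-specificity phosphatases 1 rose and 0 fell. That was Dusp3, a small phosphatase of ERK and JNK, which read 442.9, 423.1 and 405.0 against 536.3, 530.1 and 518.6, a log2 difference of 0.32 (SE 0.0522, limma adjusted p = 0.0168). Medians of these lists were 0.012 and 0.025.

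Among 27 measured genes of 28 other brakes of receptor and RAS signalling 0 rose and 2 fell (median 0.058). They were the adaptor Dok3, with a log2 difference of -0.39 (SE 0.0644, limma adjusted p = 0.0179), and the JAK inhibitor Socs1, with -0.33 (SE 0.0619, limma adjusted p = 0.0285). Nf1, the partner of the Spred proteins, read 1280, 1422 and 1270 against 1520, 1823 and 1723, a log2 difference of 0.35 that did not pass (limma adjusted p = 0.0727). It was named after its values were seen.

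In the RAS-ERK cascade itself 0 of 25 measured genes rose and 3 fell (median -0.044). A further 8 of the 33 listed were not analysed here. Rasgrp3, an exchange factor that diacylglycerol brings to RAS, read 249.1, 279.2 and 269.0 against 130.0, 145.4 and 147.7, a log2 difference of -0.91 (SE 0.0723, limma adjusted p = 0.000768). Rasgrp3 was dim, with group means of 266 and 141 below the 311 of the median gene. The related Rasgrp1 read 4515, 4540 and 4358 against 3438, 3526 and 3343, a log2 difference of -0.38 (SE 0.0476, limma adjusted p = 0.00537). Ksr1, a scaffold for RAF and MEK, had -0.28 (SE 0.0577, limma adjusted p = 0.0409). The groups of all 3 were apart.

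Transcription factors and early genes downstream of ERK moved both ways, with 3 of 30 higher and 3 lower (median 0.025). Etv1, an ETS factor of the PEA3 group, read 329.3, 340.6 and 334.2 against 893.1, 940.2 and 881.2, a log2 difference of 1.43 (SE 0.0487, limma adjusted p = 3.66e-05). Ccnd1, which encodes cyclin D1, read 2004, 1947 and 2094 against 5771, 6061 and 5655, a log2 difference of 1.53 (SE 0.0536, limma adjusted p = 4e-05). Phlda1, an early gene with a pleckstrin homology domain, rose by 0.49 (SE 0.0501, limma adjusted p = 0.00226).

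The lower ones, named after their values were seen, were Elk1, Nr4a1 and Egr1. Elk1, the ETS partner of serum response factor, read 928.8, 913.8 and 885.5 against 580.4, 463.5 and 511.5, a log2 difference of -0.82. Nr4a1, an orphan nuclear receptor, and Egr1, a zinc-finger factor, had log2 differences of -0.37 and -0.33. Limma's adjusted p was 0.0026 for Elk1, 0.00571 for Nr4a1 and 0.0225 for Egr1. Srf, which encodes serum response factor, read 1492, 1375 and 1357 against 1442, 1398 and 1397 and had a log2 difference of 0.0054 (limma adjusted p = 0.982).

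In the parallel JNK and p38 pathways 0 of 20 measured genes rose and 2 fell (median -0.011). Mapk8, which encodes the kinase JNK1 that Dusp4 and Dusp10 act on, read 1889, 2135 and 1904 against 1263, 1385 and 1308, a log2 difference of -0.58 (SE 0.0685, limma adjusted p = 0.00419). Map2k6, which activates p38, read 778.0, 885.8 and 762.6 against 475.8, 520.1 and 520.0, a log2 difference of -0.68 (SE 0.0755, limma adjusted p = 0.00335). Over these 6 lists 4 of 123 measured genes rose (3.25%) and 11 fell (8.94%), beside 4.38% and 3.72% of all genes. These counts moved with the processing. The number that rose was 7 with a further quantile normalization, 8 with an intensity trend, 10 with brighter or named probe sets alone and 12 with array weights, and the number that fell was 17 with named probe sets alone or array weights. The number that fell was 6 when control replicate 1 or replicate 1 or 3 of the Cre-ERT2 arrays was left out, and 7 when replicate 2 of either group was.

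**Figure D5:**
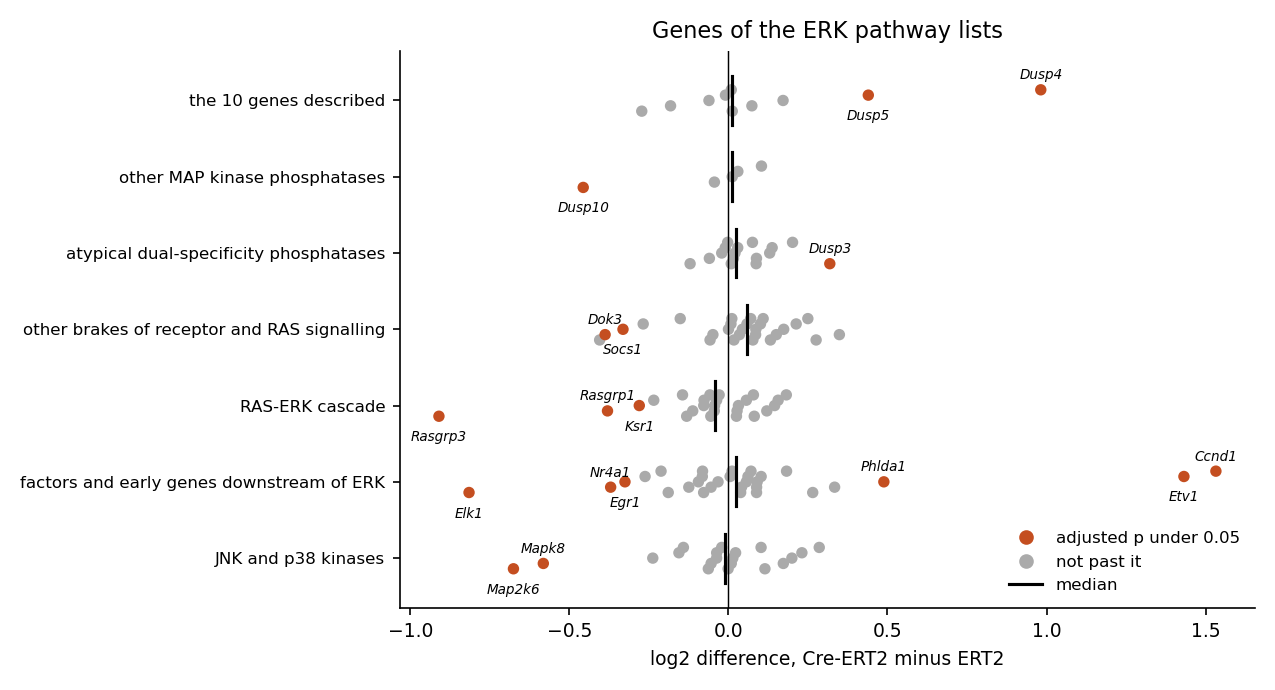
Log2 difference, Cre-ERT2 minus ERT2 (horizontal axis), of the 10 genes and of the measured genes of 6 pathway lists; points are genes, orange ones have an adjusted p under 0.05, and vertical lines are medians. Medians lie within 0.06 of 0 in all 7 groups of genes, and the called genes of the cascade and of the JNK and p38 list are all on the lower side.

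Some of these calls needed all 6 arrays. That of Ksr1 ended whichever array was left out (limma adjusted p from 0.062 to 0.17), those of Dusp10 (0.0585 to 0.107) and Socs1 (0.0698 to 0.12) when any array but control replicate 3 was. That of Dok3 ended without control replicate 1 or without any single Cre-ERT2 array (0.0607 to 0.0806), and that of Dusp3 without any single Cre-ERT2 array (0.0726 to 0.0787). That of Egr1 ended without control replicate 1 or 2 and without replicate 1 or 3 of the Cre-ERT2 group (0.0555 to 0.103). Rasgrp3, Rasgrp1, Etv1, Ccnd1, Phlda1, Elk1, Nr4a1, Mapk8 and Map2k6 kept theirs in every fit that tested them. The fit of brighter probe sets alone did not hold Rasgrp3, which was tested in 17 alternatives.

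Markers of other blood cells moved with the groups in part. Of 9 T-cell markers 2 rose, the adaptor Lat and the receptor Cd5, and the summed intensity of the list was 2160 to 2272 in the controls and 2525 to 2673 in the Cre-ERT2 arrays. The other 7, with the T-cell receptor components Cd3d, Cd3e and Cd3g among them, summed to 1138 to 1189 against 1110 to 1177, so the higher sum came from Lat and Cd5. Of 12 myeloid markers 1 rose, the lysozyme gene Lyz2, and 1 fell, the integrin Itgam, and the sum went from between 2321 and 2421 to between 2753 and 2949. Without Lyz2 the other 11 summed to 1956 to 2042 against 1934 to 1967, so the higher sum came from Lyz2. None of 7 NK-cell, 5 erythroid or 9 stromal markers passed limma's test, and 0 of these 21 had an unadjusted p under 0.05. Of the 13 pre-B markers 4 fell, the recombinase genes Rag1 (log2 difference -0.89) and Rag2 (-1.35), the interleukin-7 receptor gene Il7r (-0.93) and the aminopeptidase gene Enpep (-4.84), and 1 rose, the terminal transferase gene Dntt (1.33). The pre-B markers summed to between 89629 and 90771 in the controls and between 82443 and 83571 in the Cre-ERT2 arrays. Within that sum the mean of Enpep went from 3719 to 130 and that of Il7r from 6617 to 3481. The other 8 pre-B markers did not pass the test. Among them the mean of Igll1 went from 18846 to 19026 and that of Pax5 from 6266 to 5386. The part of these shifts in the differences of Dusp4 and Dusp5 was not tested, and in RNA of whole cultures fewer cells of a type and less RNA per cell cannot be told apart.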

How the data were processed

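Per the labels' protocols, total RNA of 3 ERT2 and 3 Cre-ERT2 samples was biotin-labelled for Affymetrix arrays. The deposited values are intensities from RMA, per the submitters' processing notes; neither version nor annotation is given in the sources used here. Their range of 6.27 to 26714 is a linear scale, so log2(intensity + 1) was used, which slightly understates changes of dim probe sets. Quantile normalization inside RMA hides a shift shared by all genes.

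Of 35556 probe sets 21789 name 1 gene, and a gene was read from the one with the highest mean log2 value. All probe sets were fitted with limma 3.58.1 in R 4.3.3 (lmFit, eBayes, no covariates), 2-sided, with Benjamini-Hochberg adjustment over all of them and a threshold of 0.05. The fit was tested on simulated data. Members and lists were chosen with earlier results of these data known. Genes named by rule were the 10 members, Sox4, up to 3 called genes of each list with the smallest p, and the 3 genes most correlated with each called member. Named outside this rule were Srf, Nf1, Elk1, Nr4a1, Egr1, Dusp7, Dusp8, Dusp9, Dusp16 and the single cell type markers. Lists were counted, not tested. Alternatives were an eBayes trend, robust fitting, brighter or named probe sets alone, median centring, quantile normalization, cyclic loess, array weights, the replicate block, other pseudocounts, the mean of probe sets, and each array left out.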

Additional observations from a re-analysis of the deposited data

How the results depend on the processing

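Dusp4 and Dusp5 kept direction and call in all 18 alternatives, and 2 members were higher in each but that of brighter probe sets alone, where Spred2 made 3. The number of members called lower, 0 as reported, was 2 (Spred1 and Dusp6) with an intensity trend, brighter probe sets alone, named probe sets alone, a further quantile normalization, cyclic loess or array weights, and 1 with a pseudocount of 16. The log2 difference of Dusp2 turned to -0.0023 under median centring, -0.026 under quantile normalization, -0.028 under cyclic loess and -0.012 under array weights, and that of Spry1 to -0.017 and -0.023 under quantile normalization and cyclic loess. With 1 array left out, Dusp2 ranged from -0.065 to 0.069, Spry1 from -0.011 to 0.042 and Spry4 from -0.048 to 0.036. None of these was called. Of the 123 pathway genes the number called higher was 8 with the trend, 10 with brighter or named probe sets, 7 with quantile normalization and 12 with array weights, and 17 were lower with named probe sets or array weights; with 1 array left out 6 to 10 were lower. Over all genes 1371 were higher with named probe sets and 1598 with array weights, where 1150 were lower; with 1 array left out 462 to 922 were higher and 483 to 652 lower. Past 1.5 times were the higher counts without control replicate 1 (504) or 3 (576) and without Cre-ERT2 replicate 1 (515), 2 (462) or 3 (465), and the lower count without Cre-ERT2 replicate 3 (483). Named or brighter probe sets alone mean fewer tests and also an eBayes step refitted on those probe sets. The cause of these changes in the counts was not tested. The samples share replicate numbers only: deviations of same-numbered samples correlated at 0.20, 0.34 and -0.049. Those of differently numbered samples ranged from -0.43 (control replicate 2 with Cre-ERT2 replicate 1) to 0.33 (control replicate 3 with Cre-ERT2 replicate 1). With the replicate block 2 members and 670 genes were higher, and Dok3, Dusp10 and Ksr1 were not called. The number of arrays limits the precision of every value.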
